A study of Oryza sativa with 12 samples.

Results

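LAC4, LAC10 and LAC24 are 3 laccase genes of rice that were chosen by name because their transcript levels had been seen to respond in opposite directions in gibberellin-signalling mutants. They are 3 of the 12 rice genes named LAC plus a number in the RefSeq gene table, and 3 of the 17905 genes that the array's annotation pairs with at least 1 probe set. Of the 12 named laccases, 9 are measured, each by 1 probe set; LAC1, a transcribed pseudogene, LAC18 and LAC21 have no probe set paired with them alone. The other measured laccases, LAC3, LAC7, LAC15, LAC19, LAC20 and LAC23, are set beside the 3 members.

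Laccases are secreted multicopper oxidases. They oxidise monolignols, the alcohols that the phenylpropanoid pathway delivers to the cell wall, to radicals that couple into lignin, a task they share with class III peroxidases. In shoots, lignin is deposited together with cellulose and xylan in the thickened secondary walls of xylem and fibres. Gibberellin promotes the elongation of leaves and stems: the hormone binds the receptor GID1, the bound receptor captures the DELLA repressor SLR1, and the F-box protein GID2 directs SLR1 to degradation.

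The arrays compared whole shoots of Taichung 65 (T65), the parental cultivar that served as control, with shoots of the mutants gid1-3, gid2-1 and slr1 (k1001), all in the T65 background. Plants stood in a greenhouse under natural conditions and were sampled 5 weeks after germination, with 3 biological replicates per line on 1 array each, 12 arrays in all. Each mutant is represented by 1 allele, and whether k1001 is a loss or a gain of SLR1 function is not given by the labels. In whole shoots, fewer cells of a type and less RNA per cell cannot be told apart, and leaf, sheath and stem were not separated.

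Signals are scaled linear intensities. As a level of background, the 95th percentile of 64 reporter controls, sequences that rice does not carry, lay between 28.3 and 52.2 on the 12 arrays; the median signal of all 57194 tested probe sets lay between 58.0 and 75.8. The genes that the mutants are named for kept clear signals: T65, gid1-3, gid2-1 and slr1 had mean GID1 signals of 4494, 6407, 6112 and 2461 and mean SLR1 signals of 1295, 827, 1135 and 1565. The labels do not say what each allele does to its own transcript, so these levels do not check the genotypes. GID2 shares its name with an overlapping gene (GF14E) and is not read here. Of 6 measured shoot markers (small subunits of Rubisco, a chlorophyll-binding protein, a photosystem subunit and protochlorophyllide reductases), 5 lay above the reporter level on every array, RBCS1 being the exception, and their summed signal ran from 41671 to 74123. The 3 measured root markers summed to 646 to 686 on the T65 arrays and 656 to 687 on those of gid1-3, to 1708 to 1892 for gid2-1 and to 862 to 939 for slr1, with LSI2 not above the reporter level on every array of any line. The 13 measured anther and panicle markers summed to 1658 to 1748 on the T65 arrays and 783 to 825 on those of gid1-3, to 1635 to 1845 for gid2-1 and to 852 to 1018 for slr1. Of these, 7 were not above the reporter level on every array of any line, namely CYP703A3, TDR, MADS1, MADS3, MADS6, MADS7 and MADS8. The list also holds MADS14, MADS15 and an entry matched as MADS2 that is also named MADS18. The sums were not split by gene and are no measure of panicle tissue. The part of these markers in the laccase values was not tested.

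LAC4 was low in both gid mutants and near the control level in slr1. Its signal was 1352, 1464 and 1354 on the T65 arrays, 51.2, 6.31 and 38.5 in gid1-3, 190, 251 and 178 in gid2-1, and 1201, 1320 and 1120 in slr1. The 4 lines did not overlap, and ran in the order gid1-3, gid2-1, slr1, T65 from low to high. In gid1-3 only 1 of 3 arrays lay above its reporter level, so that the size of the difference is not resolved there. The log2 difference from T65 was -5.91 ± 0.52 (SE) in gid1-3, which is 60.0-fold, or 29.0-fold when the dim arrays are set to their reporter level. Replicate 2 of gid1-3, at 6.31, enlarged that estimate: without it the difference was -4.97. In gid2-1 the log2 difference was -2.77 ± 0.52, a 6.81-fold lower level, and in slr1 it was -0.20 ± 0.52. That SE is pooled over all lines and takes in the scatter of the dim gid1-3 arrays; with only the slr1 and T65 arrays it was 0.07 around the same difference. Of the 57194 probe sets, 14 had a more negative difference than LAC4 in gid1-3 and 334 in gid2-1, against 20365 in slr1. The count for gid1-3 uses the fitted difference and so rests in part on signals under the reporter level.

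LAC10 was low in both gid mutants as well, and above the control in slr1. Its signal was 1179, 1158 and 1182 in T65, 259, 228 and 263 in gid1-3, 463, 542 and 566 in gid2-1, and 1915, 1909 and 2017 in slr1. All 4 lines were apart from each other, in the order gid1-3, gid2-1, T65, slr1. The log2 difference from T65 was -2.23 ± 0.08 in gid1-3 and -1.17 ± 0.08 in gid2-1, which is 4.7-fold and 2.25-fold lower, and 0.73 ± 0.08 in slr1, or 1.66-fold higher. The highest line, slr1, stood 7.81-fold above the lowest, gid1-3. The coefficient of variation within a line was lowest in T65, at 1.14%, and reached 7.77% for gid1-3, 10.2% for gid2-1 and 3.11% for slr1, so that the steps between the lines were several times the spread within them.

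LAC24 ran the other way. Its signal was 1436, 1329 and 1375 in T65, 3969, 3828 and 3858 in gid1-3, 3382, 3577 and 3775 in gid2-1, and 344, 320 and 301 in slr1. The gid mutants were highest and slr1 lowest, with T65 between them and no overlap between neighbours, although the lowest gid1-3 array (3828) and the highest gid2-1 array (3775) were close. The log2 difference from T65 was 1.49 ± 0.06 in gid1-3 and 1.37 ± 0.06 in gid2-1, which is 2.82-fold and 2.59-fold higher, and -2.10 ± 0.06 in slr1, or 4.29-fold lower. The span from slr1 to gid1-3 was 12.1-fold. Between the gid mutants LAC24 differed by 0.12 ± 0.06 on the log2 scale (gid1-3 minus gid2-1), where LAC10 differed by -1.07 ± 0.08. The fitted difference of LAC4, -3.14 ± 0.52 or 8.81-fold, is not resolved, since 2 of its 3 gid1-3 arrays were dim; with these set to their reporter level it was 4.26-fold.

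**Figure D1:**
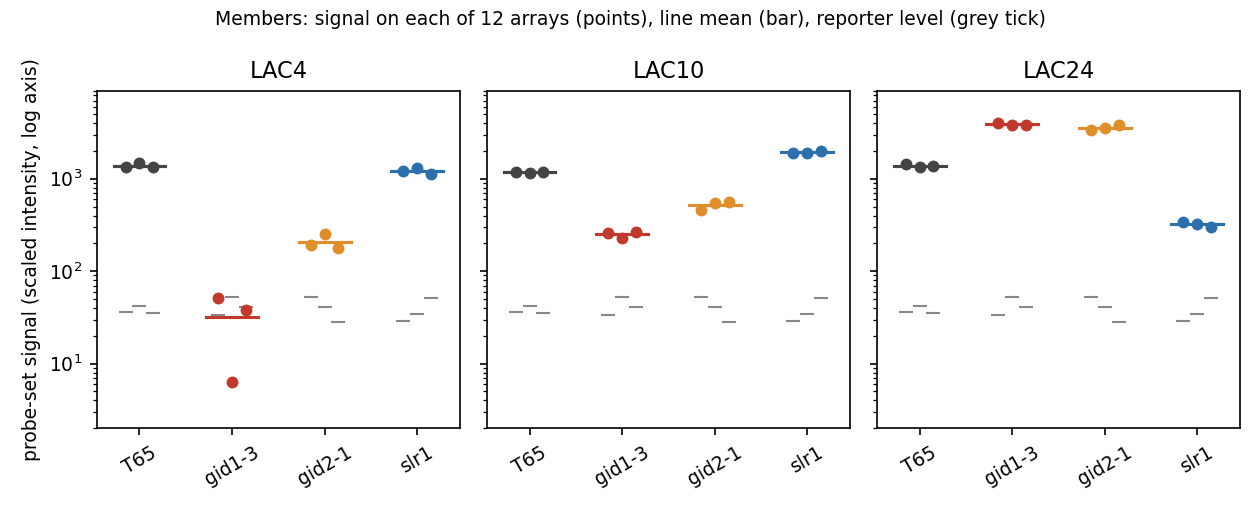
Probe-set signal (scaled intensity, log axis) of LAC4, LAC10 and LAC24 on each of the 12 arrays. Points are arrays, bars are means of 3 arrays, and grey ticks are the reporter level of each array; LAC4 and LAC10 are lowest in gid1-3, where LAC4 reaches the reporter level, and LAC24 is lowest in slr1.

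These values are those for which the 3 genes were chosen, so they are given as a description with no test. In all 9 differences from T65, the 3 arrays of the mutant lay on one side of the 3 T65 arrays. Over all probe sets the arrays were apart in this way, with the mutant higher or lower, for 20.7% and 21.4% in gid1-3, 19.9% and 17.9% in gid2-1, and 15.7% and 18.4% in slr1. The comparisons with T65 share the same 3 control arrays. Contrasts among the mutants do not use those arrays, yet the choice of the genes bears on these contrasts as well, so they too are a description. On the log2 scale, slr1 minus gid1-3 was 5.71 ± 0.52 for LAC4, 2.96 ± 0.08 for LAC10 and -3.60 ± 0.06 for LAC24. For slr1 minus gid2-1 the values were 2.57 ± 0.52, 1.90 ± 0.08 and -3.48 ± 0.06. The LAC4 value against gid1-3, 52.3-fold as fitted, was 25.3-fold with the dim gid1-3 arrays at their reporter level. The signs of LAC4 and LAC10 differed in slr1 against T65 alone. In these mutant contrasts too, no arrays of the lines compared overlapped for any of the 3 genes. Over all probe sets the arrays were apart, with the first line higher or lower, for 18.9% and 20.3% in slr1 against gid1-3, 16.1% and 19.9% in slr1 against gid2-1, and 14.1% and 18% in gid1-3 against gid2-1. Under the scalings tried (quantile normalization, centring on array medians and centring on spiked controls) none of these 9 differences from T65 changed sign.

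Among the other 6 laccases, no pattern was shared by all. LAC3 had levels like those of LAC4 and LAC10: 742, 848 and 743 in T65, 129, 95.2 and 146 in gid1-3, 462, 324 and 418 in gid2-1, and 837, 935 and 920 in slr1. It fell in gid1-3 (log2 difference -2.68 ± 0.15, adjusted p = 2.1e-09 in limma) and in gid2-1 (-0.97 ± 0.15, adjusted p = 0.00014), with its arrays apart from T65. In slr1 it overlapped T65 (0.21 ± 0.15, adjusted p = 0.44). The direct limma contrast of gid1-3 with gid2-1 also passed, with LAC3 lower in gid1-3 (-1.71 ± 0.15, adjusted p = 6.2e-07).

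LAC20 was not above the reporter level in gid1-3. Its signal was 265, 266 and 262 in T65, 9.96, 3.08 and 21.5 in gid1-3, 214, 156 and 149 in gid2-1, and 302, 338 and 232 in slr1. No gid1-3 array reached the reporter level, so the level in T65 was at least 6.38-fold higher (limma adjusted p = 9.3e-07); the fitted log2 difference was -4.93 ± 0.48 and lay at -4.18 without replicate 2 of gid1-3 and at -5.58 without replicate 3. The gid2-1 arrays lay below those of T65, but the fit over 12 arrays did not call them (-0.63 ± 0.48, adjusted p = 0.43), while a fit on the arrays of these lines alone did (adjusted p = 0.013). Against gid2-1, gid1-3 was lower by at least 4.11-fold (limma adjusted p = 7.8e-06).

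LAC7 rose in every mutant, and most in slr1. Its signal was 1733, 1733 and 1676 in T65, 2684, 2339 and 2308 in gid1-3, 2876, 2623 and 2827 in gid2-1, and 5941, 5346 and 5149 in slr1. All mutant arrays were above all T65 arrays, and the log2 differences were 0.51 ± 0.07 in gid1-3, 0.69 ± 0.07 in gid2-1 and 1.67 ± 0.07 in slr1 (limma adjusted p = 4e-05, 1.9e-06 and 3.9e-10). LAC7 thus lay above T65 in the gid mutants, as LAC24 did, and also in slr1, where LAC24 was low; slr1 was above gid1-3 by 1.17 ± 0.07 and above gid2-1 by 0.98 ± 0.07 (limma adjusted p = 5.6e-09 and 4.2e-08). The difference of gid1-3 from gid2-1 was not called (-0.19 ± 0.07, adjusted p = 0.086; 0.022 without replicate 1 of gid1-3, 0.046 with replicate number as a block and 0.048 with dim probe sets left out).

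LAC19 was lower in slr1 and overlapped T65 in the gid mutants. Its signal was 135, 179 and 117 in T65, 195, 160 and 168 in gid1-3, 118, 112 and 125 in gid2-1, and 63.2, 48.8 and 70.9 in slr1. The fall in slr1 was -1.23 ± 0.21 on the log2 scale (limma adjusted p = 0.00057), while gid1-3 (0.30 ± 0.21) and gid2-1 (-0.26 ± 0.21) were not called (adjusted p = 0.37 and 0.47). Its direction in slr1 was that of LAC24. In the order of the gene table LAC19 and LAC20 are next to each other with 0 genes between them, and they had no called change in common: LAC20 fell in gid1-3 and was near T65 in slr1 (0.12 ± 0.48, adjusted p = 0.93), LAC19 the reverse. A test of this difference between the genes was not made.

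LAC23 had a low signal and LAC15 was dim. The signal of LAC23 was above the reporter level on 2 of 3 gid1-3 arrays and on all arrays of the other lines. LAC23 measured 114, 107 and 112 in T65, 66.3, 39.2 and 54 in gid1-3, 78.5, 50.1 and 50.6 in gid2-1, and 131, 89 and 99 in slr1. It fell in gid1-3 (-1.09 ± 0.29, limma adjusted p = 0.0085) and gid2-1 (-0.92 ± 0.29, limma adjusted p = 0.026) and overlapped T65 in slr1 (-0.08 ± 0.29, adjusted p = 0.92). The gid2-1 call did not survive the omission of a single T65 array (limma adjusted p = 0.078, 0.063 and 0.072) or of replicate 2 or 3 of gid2-1 (0.084 and 0.086). LAC15 measured 41.1, 38 and 41.4 in T65 and 58.5, 68.9 and 76.6 in gid1-3. In gid2-1 it measured 41.1, 28 and 22.2, and in slr1 9.28, 37.7 and 36.4. It lay at or near the reporter level outside gid1-3 and was called in none of the comparisons with T65. Its gid1-3 arrays all lay above those of T65 and its slr1 arrays all below (limma adjusted p = 0.36 and 0.4).

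**Figure D2:**
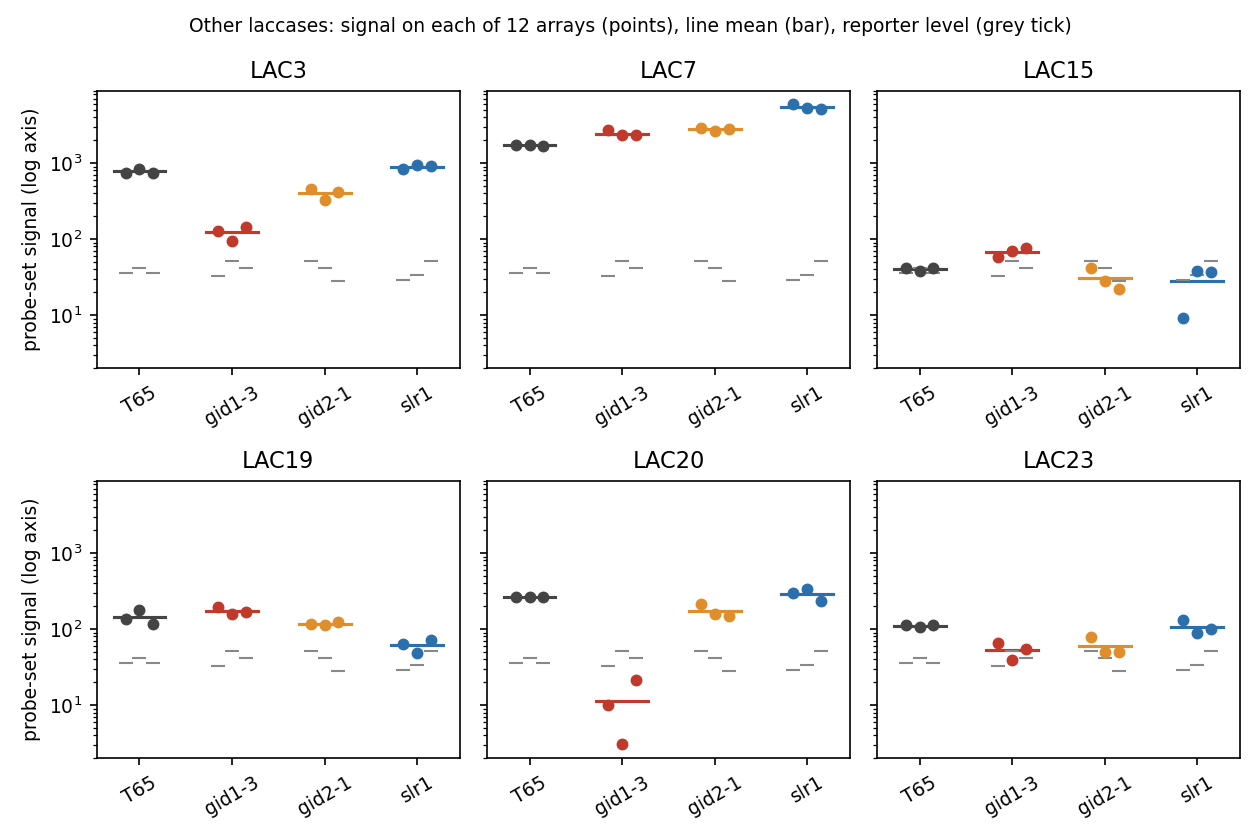
Probe-set signal (log axis) of the other 6 measured laccases on each of the 12 arrays, drawn as points with the mean of 3 arrays as a bar and the reporter level of each array as a grey tick. LAC3 and LAC20 are lowest in gid1-3, LAC7 is highest in slr1, LAC19 is lowest in slr1, and LAC15 stays near the reporter level outside gid1-3.

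Counted over these 6 genes at an adjusted p under 0.05, 1 was higher and 3 lower than T65 in gid1-3, where 14.1% and 15.4% of all probe sets were called in these directions (29.5% in either). For gid2-1 the counts were 1 higher and 2 lower, against 13.7% and 12.4% (26.1%), and for slr1 1 higher and 1 lower, against 9.1% and 10.8% (19.9%). A separate fit of the probe sets at or above the median signal alone, with its own adjustment, called 58.4%, 52.9% and 42.7% of them. That fit holds 5 of these 6 laccases and called 4, 3 and 2 of them. The median log2 difference of the 6 genes was -0.40, -0.54 and 0.02, beside -0.005, 0.049 and -0.017 over all probe sets. With 6 genes, nothing is read from the counts about laccases as a family.

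The mutants were then set directly against each other. Between slr1 and gid1-3, 4 of the 6 were higher in slr1 (LAC3, LAC7, LAC20 and LAC23) and 2 lower (LAC15 and LAC19). Of all probe sets, 14.1% were called higher and 14.9% lower (29% in either direction). In the separate fit of probe sets at or above the median signal, 57.8% of them and 5 of 5 laccases were called. The count of 6 became 4 without replicate 2 of gid1-3 or without replicate 1 of slr1. LAC3 differed by 2.89 ± 0.15 (limma adjusted p = 1.1e-09) and LAC19 by -1.53 ± 0.21 (limma adjusted p = 4.2e-05). The call of LAC15 (-1.53 ± 0.53, limma adjusted p = 0.041) was lost under 10 of 21 other settings, with adjusted p up to 0.17 when replicate 1 of slr1 was left out; it was also lost on omitting any single T65 array (0.055, 0.054 and 0.054) or gid1-3 array (0.069, 0.094 and 0.12). That of LAC23 (1.01 ± 0.29, limma adjusted p = 0.014) was lost without replicate 2 of gid1-3 (0.062) or replicate 1 of slr1 (0.073).

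Between slr1 and gid2-1, LAC3, LAC7 and LAC23 were higher in slr1 and LAC19 lower. Of all probe sets, 12.2% were called higher and 15.2% lower (27.3% in either direction). In the separate fit of probe sets at or above the median signal, 54.9% of them and 4 of 5 laccases were called. LAC3 differed by 1.18 ± 0.15 (limma adjusted p = 2e-05) and LAC19 by -0.97 ± 0.21 (limma adjusted p = 0.0025). The call of LAC23 (0.84 ± 0.29, limma adjusted p = 0.041) was lost under 9 of 22 settings, among them those that omit a single T65 array (0.058, 0.057 and 0.057), replicate 2 or 3 of gid2-1 (0.12 each), or replicate 1 (0.16) or 3 (0.069) of slr1. LAC20 was not called here (0.75 ± 0.48, adjusted p = 0.32), though it passed without replicate 2 of gid1-3 (0.048), with a pseudocount of 16 (0.044) and with only the arrays of the lines compared (0.016). Between gid1-3 and gid2-1, LAC3 and LAC20 were lower in gid1-3 and the other 4 were not called. Of all probe sets, 9.06% were called higher and 12% lower (21.1% in either direction). In the separate fit of probe sets at or above the median signal, 43.6% of them and 4 of 5 laccases were called. Of the 4 not called over all probe sets, LAC15 (limma adjusted p = 0.14) passed without replicate 1 of slr1 (0.04). LAC19, whose gid1-3 arrays all lay above those of gid2-1 (0.56 ± 0.21, limma adjusted p = 0.086), passed after quantile normalization (0.031) and with dim probe sets left out (0.041).

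**Figure D3:**
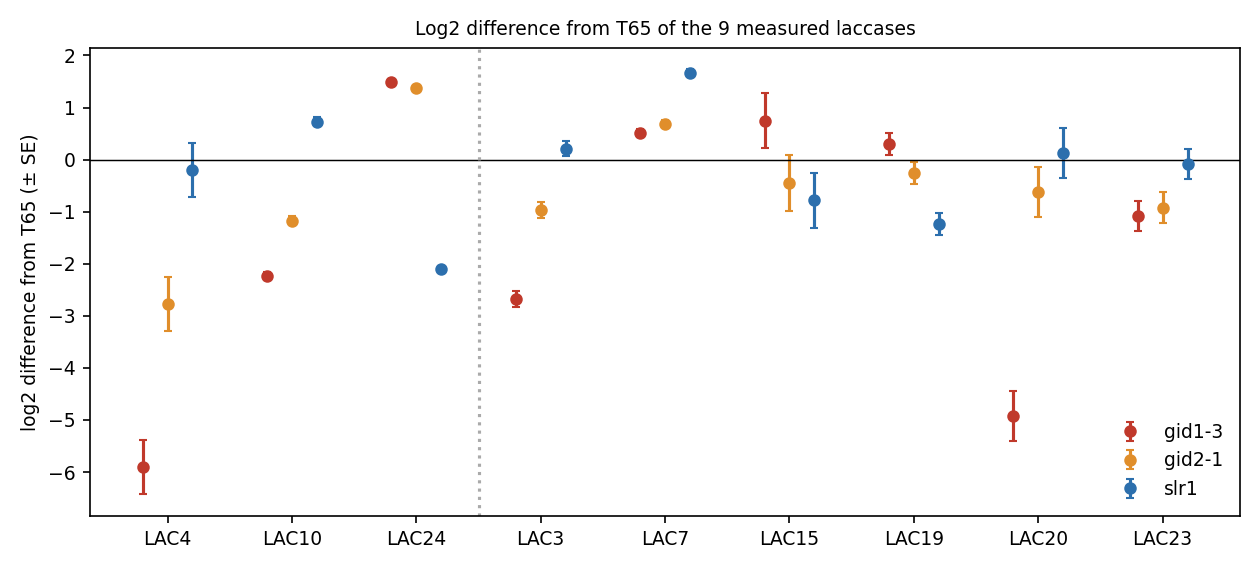
Log2 difference from T65 (± SE, 3 arrays per line) of the 9 measured laccases in gid1-3, gid2-1 and slr1, the 3 members left of the dotted line. LAC4, LAC10, LAC3, LAC20 and LAC23 lie below 0 in both gid mutants, LAC20 without a call in gid2-1. LAC24 lies above 0 in the gid mutants and at -2.10 in slr1, and LAC7 lies above 0 in each mutant.

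Genes that make the monolignols on which laccases act were examined next, as a list of 16 measured genes of 19 named ones. In gid1-3, 8 fell, 3 rose and 5 were not called, where 15.4% of all probe sets were called lower and 14.1% higher. In gid2-1, 5 fell, 1 rose and 10 were not called (12.4% and 13.7% of all), and in slr1 5 fell, 4 rose and 7 were not called (10.8% and 9.1%). The calls in either direction were 11, 6 and 9 of 16. In the separate fit of probe sets at or above the median signal they were 12, 6 and 9 of 14. That fit called 58.4%, 52.9% and 42.7% of its probe sets. The median log2 difference of the list was -0.46, -0.12 and -0.19, against -0.005, 0.049 and -0.017 over all probe sets. The 4 genes described next were picked for the smallest F-test p over these contrasts with T65. Their p-values against T65 are thus no independent support. CAD2, the cinnamyl alcohol dehydrogenase also known as GH2, which makes the alcohols themselves, went from 9818 ± 363 (SD, n = 3) in T65 to 1712 ± 104 in gid1-3, 3951 ± 228 in gid2-1 and 5386 ± 229 in slr1. Its log2 differences were -2.52 ± 0.06, -1.31 ± 0.06 and -0.87 ± 0.06 (limma adjusted p = 4.8e-13, 4.3e-10 and 1.1e-07). CAD2 thus resembled LAC4 and LAC10 in having its lowest level in gid1-3, but in slr1 it fell where LAC10 was above T65.

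CAD3, a further gene of that dehydrogenase family, was lowest in gid2-1, at 837 ± 90.8 against 9385 ± 350 in T65, with 2208 ± 180 in gid1-3 and 4793 ± 633 in slr1. All 3 differences were called, which the pick by F-test p makes likely (-3.49 ± 0.10 in gid2-1, limma adjusted p = 1.6e-12). In the 4-coumarate-CoA ligase family, which activates the acids upstream, 4CL3 and 4CL5 differed in direction. 4CL3 fell from 3631 ± 112 to 1501 ± 80.2 in gid1-3, 1395 ± 78.2 in gid2-1 and 2555 ± 18.8 in slr1 (-1.28 ± 0.06, -1.38 ± 0.06 and -0.51 ± 0.06, limma adjusted p up to 1.6e-05). 4CL5 rose from 4020 ± 110 to 9329 ± 397 in gid1-3 and 7159 ± 268 in gid2-1 (1.21 ± 0.05 and 0.83 ± 0.05, limma adjusted p = 1.4e-10 and 1.1e-08) and was 3972 ± 72.1 in slr1 (-0.02 ± 0.05, adjusted p = 0.9). 4CL5 rose in the gid mutants as LAC24 did, without the low level of LAC24 in slr1.

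Genes of cellulose and xylan synthesis in thickened walls, and their regulators, formed a list of 16 measured genes of 19 named ones. In gid1-3, 11 fell, 3 rose and 2 were not called, beside the same 15.4% lower and 14.1% higher of all probe sets. In gid2-1, 8 fell, 4 rose and 4 were not called (12.4% and 13.7% of all), and in slr1 3 fell, 1 rose and 12 were not called (10.8% and 9.1%). The calls in either direction were 14, 12 and 4 of 16. In the separate fit of probe sets at or above the median signal they were 15, 12 and 6 of 16. That fit called 58.4%, 52.9% and 42.7% of its probe sets. The median was -0.49, -0.25 and 0.03, against -0.005, 0.049 and -0.017 over all probe sets. One of these names is shared by the COBRA-like BC1 and a bHLH factor, and the entry for MYB30 also carries the name MYBS3, so the list holds entries whose role in walls is not settled by their names. The 4 genes described next were again picked for the smallest F-test p over the contrasts with T65, so their p-values are no independent support. CESA4 and CESA9 are cellulose synthase subunits of thickened walls. CESA4 differed by -3.24 ± 0.07 in gid1-3, -1.26 ± 0.07 in gid2-1 and 0.03 ± 0.07 in slr1, and CESA9 by -3.45 ± 0.13, -1.07 ± 0.13 and 0.26 ± 0.13, with limma adjusted p of 1.4e-05 or below in the gid mutants and 0.88 and 0.22 in slr1. GT43A, a glycosyltransferase of the family that builds xylan, went from 1586 ± 27.9 in T65 to 390 ± 28.9 in gid1-3, 782 ± 42.2 in gid2-1 and 1185 ± 36.2 in slr1. BC1L6, a COBRA-like gene, had the direction of LAC24 in every mutant: it rose from 954 ± 93.7 to 2845 ± 239 in gid1-3 and 1545 ± 157 in gid2-1 and fell to 720 ± 6.58 in slr1 (1.58 ± 0.09, 0.69 ± 0.09 and -0.40 ± 0.09, limma adjusted p = 1.8e-09, 1.7e-05 and 0.0037).

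**Figure D4:**
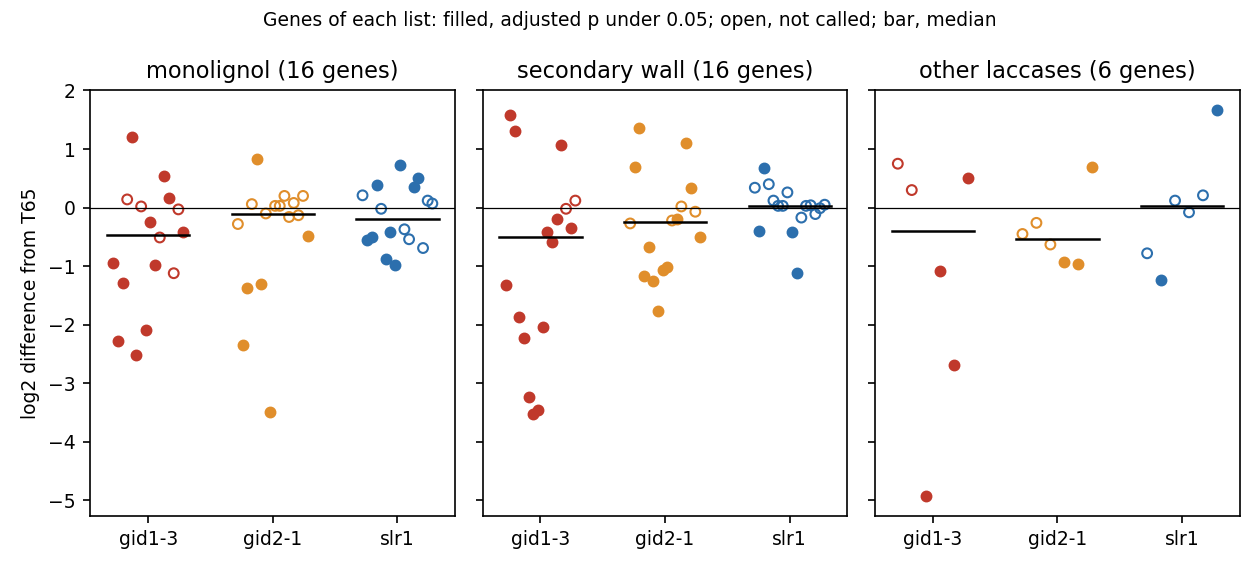
Log2 difference from T65 of each measured gene of the monolignol list, the secondary wall list and the other 6 laccases in each mutant. Filled points passed an adjusted p under 0.05, open points did not, and bars are medians; 8 of 16 monolignol genes and 11 of 16 secondary wall genes fell in gid1-3, where 15.4% of all probe sets were called lower, and 4 of 16 secondary wall genes were called in slr1, where 19.9% of all probe sets were.

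For each member, the named genes whose log2 signal followed it most closely over the 12 arrays were listed from 2218 named genes at or above the median signal. These correlations describe mainly the 4 line means, which the arrays of a line share. For LAC4 only 1 of 3 gid1-3 arrays lay above the reporter level, so its correlations rest in part on unresolved signals. LAC4 was followed most closely by EIP1 (Pearson r = 0.9880, n = 12 arrays), CESA7, a cellulose synthase of the secondary wall (0.9799), EXPB2, a beta-expansin (0.9785), EXLA4, an expansin-like gene (0.9770), and DRB2, named for double-stranded RNA binding (0.9766). EXPB2 went from 1159 ± 99.2 in T65 to 56 ± 27.5 in gid1-3 and 236 ± 44.6 in gid2-1 and stood at 1251 ± 150 in slr1. CESA7 stood at 4200 ± 341, 376 ± 117, 1241 ± 167 and 4367 ± 1093 in the same order.

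LAC10 was followed by EXPB11, another beta-expansin (r = 0.9929), the class III peroxidase PRX74 (0.9910), the beta-tubulin TUBB1 (0.9905), the A-type cyclin CYCA3-2 (0.9890) and MGD1, a galactolipid synthase of plastids (0.9887). PRX74 went from 968 ± 66.6 in T65 to 161 ± 22.5 in gid1-3 and 399 ± 11.8 in gid2-1 and stood at 1372 ± 18.5 in slr1. EXPB11 stood at 868 ± 73.9, 122 ± 18.6, 317 ± 14.7 and 1607 ± 61.6 in that order.

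LAC24 was followed by the receptor gene GID1 itself (r = 0.9929), RR9, a response regulator of cytokinin signalling (0.9853), KSL7, a diterpene synthase of phytoalexin formation (0.9796), AMPD, an AMP deaminase (0.9793), and RCCR1, a reductase of chlorophyll breakdown (0.9780). For GID1, T65 had a signal of 4494 ± 48.1, gid1-3 of 6407 ± 165, gid2-1 of 6112 ± 432 and slr1 of 2461 ± 5.39, the same order of lines as LAC24 over a narrower range. RCCR1 stood at 1544 ± 151, 3132 ± 291, 2399 ± 309 and 673 ± 52.3. Between the members themselves, r over the 12 arrays was 0.930 for LAC4 with LAC10, -0.727 for LAC4 with LAC24 and -0.908 for LAC10 with LAC24, values fixed in sign by the choice of genes.

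**Figure D5:**
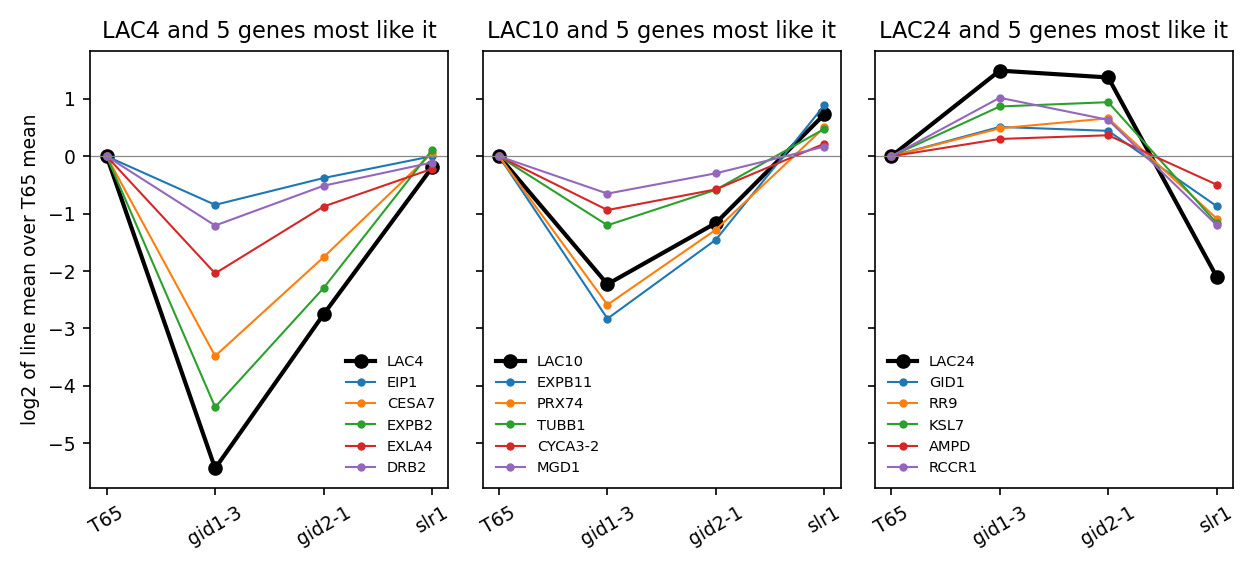
Line means of each member (black) and of the 5 named genes most like it over 12 arrays, as the log2 ratio to the T65 mean. The genes like LAC4 and LAC10 are lowest in gid1-3, and those like LAC24, GID1 among them, are above T65 in the gid mutants and below it in slr1.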

How the data were processed

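Total RNA of 12 shoot samples was processed to biotinylated cRNA for an Affymetrix rice array, per the labels' protocols. The deposited values are probe-set signals, a linear intensity; the software is not given in the sources used here. On every array the mean after trimming 2% at each end was 500.1, which scaling by the authors would give. No detection calls were used.

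Of 57381 probe sets 187 controls were left out. Signals under 1 were set to 1, log2 was taken, and a model with a mean for each line was fitted over the 12 arrays together (limma 3.58.1, R 4.3.3, eBayes with a trend), with Benjamini-Hochberg adjustment over 57194 probe sets and calls at an adjusted p under 0.05. The fit was also run on simulated data with normal noise, which does not check values near the reporter level. Where several probe sets name a gene, that of highest mean log2 signal stands for it. Names came from the array's table and RefSeq (ASM3414082v1); the array's build is not named, so no coordinates are given. A fold "at least" sets each array of the dim line to its reporter level where that is higher. The 3 arrays per line limit precision.

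The members and lists were chosen with earlier results of these data known. Named genes were all measured laccases, up to 4 genes per list with the smallest F-test p over the contrasts with T65, and the 5 named genes most correlated with each member; CAD2 is listed as CAD. Whether replicate numbers pair the arrays was not settled. Over 18 pairs of the same number in different lines, deviations from line means correlated between -0.283 and 0.206, with 4 over 0.1. Over 36 pairs of other numbers the correlations ran from -0.278 to 0.272, also with 4 over 0.1. Deviations from a line mean constrain each other within the line, so this check cannot exclude that arrays of the same number were handled together. Other scalings, filters, a pseudocount of 16, a replicate block, averaged probe sets and each array left out in turn were tried.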

Additional observations from a re-analysis of the deposited data

How the results depend on the processing

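Of 180 recomputed differences of LAC4, LAC10 and LAC24 from T65, 175 moved by less than the replicate spread. Many settings cannot move these differences, so that count is no measure of stability. They are a replicate block, averaged probe sets, cross-hybridizing probe sets left out, only the lines compared, and arrays of other lines left out. For LAC4 in gid1-3 the spread was 1.64, which takes in its dim arrays. The 5 that moved more came from centring on 18 spiked hybridization controls. It moved the median of all probe sets to -0.21 in gid1-3, -0.14 in gid2-1 and -0.10 in slr1. LAC10 became -2.44, -1.35 and 0.65, and LAC24 1.29 and 1.19 in the gid mutants. Leaving out 1 array, LAC4 ran from -6.48 to -4.97 in gid1-3, from -2.92 to -2.67 in gid2-1 and from -0.26 to -0.14 in slr1.

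Requiring at least 2-fold as well left 5 of 11 monolignol calls in gid1-3 and 0 of 9 in slr1, 7 of 12 secondary wall calls in gid2-1 and 1 of 4 in slr1, and of the other laccases 0 of 3 in gid2-1 and 1 of 4 between slr1 and gid2-1. Only the arrays compared gave 7 secondary wall genes in slr1 where all arrays gave 4. Without dim probe sets 4 laccases, in place of 2, were called between gid1-3 and gid2-1. Centring on array medians called 12.8% of all probe sets in slr1, in place of 19.9%. The other 268 of 276 counts stayed within 1.5 times. Quantile normalization split the secondary wall calls in slr1 into 3 higher and 3 lower, and the laccases between gid1-3 and gid2-1 into 1 and 2; spiked-control centring gave 2 higher and 5 lower monolignol genes in slr1 and 4 and 1 laccases between slr1 and gid1-3. HCT2 in gid1-3 became -0.05 with that centring, and GT43F 0.12 with a gene's probe sets averaged. The cause was not tested.

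With replicate number as a block, counts of the other laccases were 4, 3 and 2 against T65, as without it, 3 between gid1-3 and gid2-1, 5 between slr1 and gid1-3, where LAC15 was lost (adjusted p = 0.056), and 4 between slr1 and gid2-1. Leaving out 1 array, these counts ran from 4 to 4, 2 to 3, 2 to 2, 2 to 3, 4 to 6 and 3 to 5. Signal near the reporter level limits LAC4 and LAC20 in gid1-3, and LAC15.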
